A study of Mus musculus with 9 samples.

Results

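The genes described here are 10 components of signalling by transforming growth factor beta (TGF-beta): the ligand Tgfb1, the related ligand subunit Inhba, the extracellular proteins Thbs1, Vasn and Htra1, the receptors Tgfbr1 and Tgfbr2, the intracellular mediators Smad3 and Smad7, and the induced matrix protein Tgfbi. They were taken by gene symbol from a table of 42454 genes, and all 10 reached 10 normalized counts in 3 or more libraries, the minimum for testing that 14404 genes met. Thbs1, Vasn and Htra1 were chosen by their differences between genotypes in these same libraries, so their values are given as a description without a test. Where their intervals or calls are mentioned, these rest on the values used for that choice and are not support for a difference. The other 7 were listed for their place in the pathway, with earlier results of the same libraries known, and the tests on them are not independent of that knowledge.

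RNA was sequenced from macrophages of the colon lamina propria, the connective tissue under the gut epithelium, sorted as Ly6C low and MHC class II positive from mice aged 6 weeks. The 3 genotypes were WT, p47phox-/- and gp91phox-/-, with 3 libraries each. The gene for p47phox is Ncf1, which encodes the cytosolic organiser of the phagocyte NADPH oxidase, and gp91phox, encoded by Cybb, is the catalytic membrane subunit of the same superoxide-producing enzyme. According to its title, the series asks how reactive oxygen species bear on the development of intestinal macrophages. No further treatment or allele is labelled in any group, and how the knockout alleles were made, the strain background and whether each library came from a separate mouse are not stated in the labels. The p-values below therefore measure only how these 9 libraries vary, part of which may be technical.

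TGF-beta is secreted bound to a latency peptide and has to be released from it before it can bind its receptors. The type II receptor Tgfbr2 then recruits and phosphorylates the type I receptor Tgfbr1, which phosphorylates Smad2 and Smad3. These enter the nucleus with Smad4 and regulate target genes, among them Smad7, which encodes an inhibitor that closes the loop. Thrombospondin 1 (Thbs1) is a matrix glycoprotein that can release TGF-beta from its latency peptide, vasorin (Vasn) is a membrane protein that binds TGF-beta, and Htra1 is a secreted serine protease that cleaves matrix proteins and can act on TGF-beta family proteins. In the gut, TGF-beta signalling is known to contribute to the maturation of resident macrophages.

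Promoter sequences are shown for Vasn and Htra1 because these genes were, respectively, higher in p47phox-/- and lower in both knockouts. They are RefSeq sequences on GRCm38.p6, from 250 bases before to 50 after the annotated start, written 5′ to 3′ on the plus strand. Capitals mark the short Smad-binding motif CAGAC, searched on both strands, so that it can also read GTCTG.
Vasn, chr16:4639695-4639994: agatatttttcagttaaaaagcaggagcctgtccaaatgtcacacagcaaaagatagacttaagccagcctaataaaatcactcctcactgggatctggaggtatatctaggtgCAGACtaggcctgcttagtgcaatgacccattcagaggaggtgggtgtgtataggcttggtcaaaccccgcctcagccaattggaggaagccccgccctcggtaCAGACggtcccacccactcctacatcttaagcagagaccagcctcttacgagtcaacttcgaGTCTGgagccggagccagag
Htra1, chr7:130935953-130936252: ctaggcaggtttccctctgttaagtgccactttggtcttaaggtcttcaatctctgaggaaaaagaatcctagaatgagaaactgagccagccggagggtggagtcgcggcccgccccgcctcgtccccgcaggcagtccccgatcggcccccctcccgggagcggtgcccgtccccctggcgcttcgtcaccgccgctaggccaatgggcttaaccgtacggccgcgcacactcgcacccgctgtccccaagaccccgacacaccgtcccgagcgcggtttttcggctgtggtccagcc
The Vasn window held 3 matches, starting at positions -136, -32 and 31 relative to the start, and the Htra1 window held 0. The motif is common, being present in 49.6% of 32851 windows of this length. Of the 8 members with a RefSeq promoter, Tgfbi, Tgfbr2 and 1 of the windows of Tgfbr1 also held it. The AP-1 motif TGANTCA, on either strand, was present in 7.81% of all windows and in 0 of the 8 members. A match is a string of letters and was not tested as a binding site, and no match says nothing of the factor.

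The libraries held 31141107 to 52797368 reads on genes. In the p47phox-/- group, replicates 2 and 3 had reads on 14323 and 14268 genes and replicate 1 on 17754. The ranges were 15825 to 17280 in WT and 18115 to 18760 in gp91phox-/-. Many of the results that rest on p47phox-/- replicates 2 and 3, though not all, are therefore also given without them. Mean normalized counts of Ncf1 (± SD, n = 3) were 3195 ± 510.4 in p47phox-/-, against 9957 ± 918 in WT and 13039.5 ± 793 in gp91phox-/-. All 1139 genes of chromosome X matched by symbol, Cybb among them, are listed at 0 throughout, so the gp91phox-/- label could not be checked on its target. All 12 macrophage markers were detected in the tested set, and their summed level was 608552 to 810684 in WT, 693960 to 889814 in p47phox-/- and 772298 to 893256 in gp91phox-/-. In bulk RNA, fewer cells of a type and less RNA per cell cannot be told apart.

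On the scale of normalized counts per kb of exon, which allows genes to be compared, the members differed widely. In WT macrophages Thbs1 came first, at 25487 ± 2765 normalized counts per kb (SD, n = 3), rank 31 of 13548 tested genes with a length. Tgfbi followed at 12983 and Tgfb1 at 3948, and each of these levels lay apart from the next in every library. Tgfbr2 at 1383, Tgfbr1 at 1295 and Htra1 at 1123 formed a middle tier in which neighbours overlapped, as did Smad7 at 561 and Smad3 at 540 below them. Vasn at 52.1 and Inhba at 36.2 were lowest and overlapped. The order of levels differed in the knockouts at both ends: in p47phox-/- Tgfbi (10162) stood above Thbs1 (7583), and Htra1 (239) overlapped both Smad7 above it and Vasn (187) below it. In gp91phox-/- Thbs1 (22550) was again first, while Inhba (279) stood next to Smad3 (317), above Htra1 (155) and Vasn (84.1), with Inhba spread from 68.8 to 534.

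**Figure D1:**
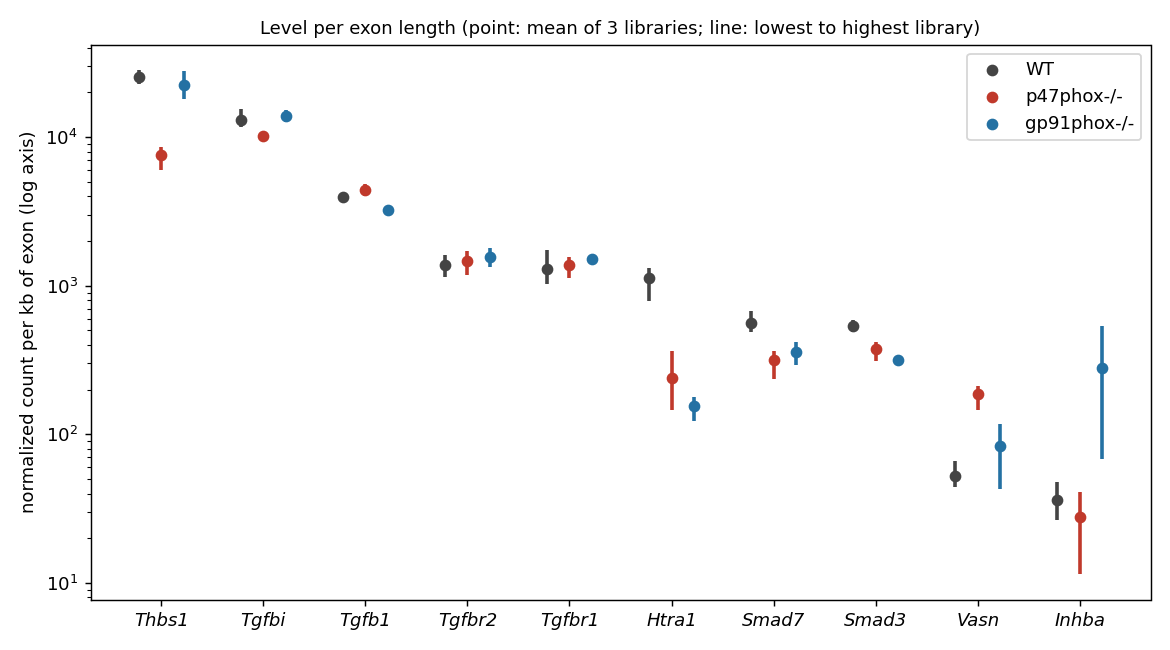
Level of each of the 10 genes in normalized counts per kb of exon, on a log axis, with a point for the mean of 3 libraries of a genotype and a line from the lowest to the highest library. The p47phox-/- point for Thbs1 lies below that for Tgfbi, the Htra1 points of both knockouts lie below WT, and the gp91phox-/- line for Inhba is the longest.

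The ligand Tgfb1 (GRCm38, chromosome 7, 25687002 to 25705077, plus strand, protein-coding) was abundant in every library and differed little between genotypes. Its normalized counts were 20697, 20148 and 18877 in WT, 20121, 24510 and 22046 in p47phox-/-, and 15996, 16568 and 16465 in gp91phox-/-. All gp91phox-/- libraries lay below all others, whereas the WT and p47phox-/- libraries overlapped. Against WT the log2 fold change was 0.16 in p47phox-/- (SE 0.12, limma adjusted p = 0.577) and -0.28 in gp91phox-/- (SE 0.12, adjusted p = 0.199). Only the direct comparison of the knockouts was called, with Tgfb1 lower in gp91phox-/- than in p47phox-/- by a log2 fold change of -0.44 (SE 0.12, limma adjusted p = 0.0408). B cell markers were lower in the same group: the sum of 10 was 25412 to 52998 in WT, 25160 to 35047 in p47phox-/- and 3796 to 5769 in gp91phox-/-, with all 10 called lower in gp91phox-/- against either other group. Of 10 dendritic cell markers, 4 were called lower against WT (Ccr7, Cd209a, Flt3 and Itgae), and these and Zbtb46 against p47phox-/-, 5 in all. The sum of the 10 overlapped between the groups (29591 to 36879 in WT, 29773 to 33308 in p47phox-/- and 32881 to 35049 in gp91phox-/-). Most of that sum came from Sirpa, at 24753 to 28700 in WT, 22422 to 26637 in p47phox-/- and 30184 to 32407 in gp91phox-/- (not called). The sum therefore does not show the level of the other dendritic cell markers. The part of these cells in the Tgfb1 values was not tested. The call between the knockouts lay close to the threshold and was lost in 15 of 22 alternatives, including without any 1 of WT replicates 1 and 3, p47phox-/- replicates 2 and 3 and all 3 gp91phox-/- replicates (-0.45 to -0.37), and without p47phox-/- replicates 2 and 3 together (-0.30).

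Inhba encodes the beta A subunit of activin A and inhibin A, ligands that signal through Smad2 and Smad3 like TGF-beta does. It lies on chromosome 13 (GRCm38, 16011851 to 16031621, plus strand, protein-coding). Normalized counts were 219, 169 and 305 in WT and 261, 73.0 and 199 in p47phox-/-. In gp91phox-/- they were 440 in replicate 1, 1490.3 in replicate 2 and 3414 in replicate 3. Every gp91phox-/- library lay above all 6 others, and the 3 differed widely from each other. Inhba rose in gp91phox-/- against WT by a log2 fold change of 2.54 (SE 0.63, 5.81-fold, limma adjusted p = 0.0295) and against p47phox-/- by 3.06 (SE 0.63, 8.33-fold, adjusted p = 0.00941). In p47phox-/- against WT the value was -0.52 (95% interval -1.88 to 0.84, limma adjusted p = 0.732), which turned to 0.02 without p47phox-/- replicate 2. The call against WT was lost without any 1 of the WT libraries or without gp91phox-/- replicate 2 or 3 (1.85 to 2.76), and without gp91phox-/- replicate 1 the value was 3.32. The call against p47phox-/- was lost without p47phox-/- replicates 2 and 3 together (2.32), and its value was 3.84 without gp91phox-/- replicate 1 and 2.37 without replicate 3.

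Thbs1, the extracellular activator, differed between the knockouts. Its gene lies on GRCm38 chromosome 2, 118111876 to 118127133, on the plus strand, and is protein-coding. Normalized counts were 138703, 172202 and 153434 in WT. In p47phox-/- they were 49320, 36643 and 52183. In gp91phox-/- they were 131657, 109175 and 170015. The p47phox-/- libraries lay below all others without overlap, and the gp91phox-/- libraries lay on both sides of WT. Thbs1 was thus 3.39-fold lower in p47phox-/- than in WT (log2 fold change -1.76, SE 0.21, 95% interval -2.21 to -1.31) and close to WT in gp91phox-/- (-0.19, SE 0.21, interval -0.65 to 0.26). Leaving out each library in turn gave -1.86 to -1.60 for p47phox-/- against WT, and leaving out p47phox-/- replicates 2 and 3 together gave -1.64, with the gene then short of the call threshold. Between the knockouts the log2 fold change was 1.57 (SE 0.21), 2.96-fold higher in gp91phox-/-.

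The size of the Thbs1 difference is visible in the libraries as a whole. Thbs1 took 0.457, 0.617 and 0.511% of all reads on genes in the WT libraries, 0.170, 0.117 and 0.176% in p47phox-/-, and 0.431, 0.343 and 0.570% in gp91phox-/-. By count it was gene number 11 in WT, 54 in p47phox-/- and 12 in gp91phox-/- among the genes tested. Thbs1 is also known from platelets and fibroblasts, whose markers are given here beside it. The summed level of 10 platelet markers, most of it from Pf4, was 6400 to 8846 in WT, 12312 to 16313 in p47phox-/- and 9355 to 11738 in gp91phox-/-. Of these markers 1 was listed at 0, Gp9, Gp1ba, Gp1bb and Gp6 did not reach the minimum for testing, and Pf4 was the 1 called higher in p47phox-/-. Without Pf4, a split made after its values were seen, the other 9 platelet markers summed to 333 to 443 in WT, 243 to 424 in p47phox-/- and 275 to 329 in gp91phox-/-, so these sums overlapped between WT and p47phox-/-. The summed level of 16 fibroblast and smooth muscle markers was 7985 to 10773 in WT, 13923 to 20936 in p47phox-/- and 11184 to 13403 in gp91phox-/-. The part of either in the Thbs1 values was not tested.

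Vasn (GRCm38, chromosome 16, 4639941 to 4650802, plus strand, protein-coding), the TGF-beta-binding membrane protein whose promoter is printed above, was the member that was higher in p47phox-/-. Normalized counts were 133, 137 and 200.2 in WT. They were 634, 615 and 437 in p47phox-/-, and 128, 279 and 351 in gp91phox-/-. The p47phox-/- libraries lay above all others, and the gp91phox-/- libraries ran from the lowest of all 9 to above every WT library. The level was 3.58-fold higher in p47phox-/- than in WT (log2 fold change 1.84, SE 0.34, 95% interval 1.09 to 2.59). Against WT the gp91phox-/- value was 0.59 (SE 0.34, interval -0.16 to 1.34), and between the knockouts it was -1.25 (SE 0.34). The p47phox-/- value was 1.74 to 2.03 without any 1 of the WT or p47phox-/- libraries, although the gene fell short of the call threshold in each of these fits. Against p47phox-/- the gp91phox-/- value was -0.82 without gp91phox-/- replicate 1 and -1.44 without p47phox-/- replicates 2 and 3 together.

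The gene of Vasn lies wholly inside that of Coro7 on the opposite strand, with 0 shared exon bases, and shares 160 of its 3007 exon bases with Dnaja3 on the same strand. No source used here gives the strand setting of the counting, so reads of Vasn and Coro7 precursors cannot be told apart. Of the 3007 exon bases of Vasn, 2959 lie within the span of the Dnaja3 gene. Reads of Dnaja3 precursors there cannot be told from those of Vasn under any strand setting. Coro7 was at 4183 to 5060 normalized counts over the 9 libraries, with a log2 fold change of 0.01 in p47phox-/- against WT, and Dnaja3 at 409 to 585. The summed fibroblast and smooth muscle markers given beside Thbs1 were, like Vasn, highest in p47phox-/-, and Vasn is expressed by vascular smooth muscle. In p47phox-/- replicates 1, 2 and 3 Vasn was at 634, 615 and 437 and the sum at 20936, 13923 and 17989. All gp91phox-/- sums lay above all WT sums, whereas Vasn overlapped between these groups. Of the 16 markers 3 were called higher in p47phox-/- (Acta2, Col3a1 and Sparc), and 0 were listed at 0. Their part in the Vasn values was not tested.

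Htra1, the secreted protease, was lower in both knockouts, as the values of Smad3 and Smad7 also were (GRCm38, chromosome 7, 130936111 to 130985660, plus strand, protein-coding). Normalized counts were 3608, 2277 and 3814 in WT, 591, 1050 and 420.1 in p47phox-/-, and 352, 475 and 513 in gp91phox-/-. Each knockout library lay below each WT library, and the knockouts overlapped. Htra1 was 4.93-fold lower in p47phox-/- (log2 fold change -2.30, SE 0.30, 95% interval -2.96 to -1.64) and 7.13-fold lower in gp91phox-/- (-2.83, SE 0.30, interval -3.49 to -2.18). Both contrasts share the WT libraries, and the difference between the knockouts was -0.53 (interval -1.19 to 0.13). Without p47phox-/- replicates 2 and 3 together, the p47phox-/- value was -2.41. The summed level of 10 endothelial markers was 3086 to 6777 in WT, 1879 to 3649 in p47phox-/- and 2408 to 3223 in gp91phox-/-, with 0 markers listed at 0 and Pecam1 called lower in p47phox-/-. Pecam1 alone was at 2144 to 4809 in WT, 985 to 1874 in p47phox-/- and 1708 to 2159 in gp91phox-/-. WT replicate 2 had the lowest value of the WT group both for this sum and for Htra1. In p47phox-/- the sum was highest in replicate 1 (3649) and Htra1 in replicate 2 (1050), and in gp91phox-/- both were highest in replicate 3. The part of endothelial RNA in the Htra1 values was not tested. The Htra1 gene lies inside the annotated span of Fgfr2 on the opposite strand, with 0 shared exon bases, and Fgfr2 was at 10.1 to 49.5 normalized counts.

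**Figure D2:**
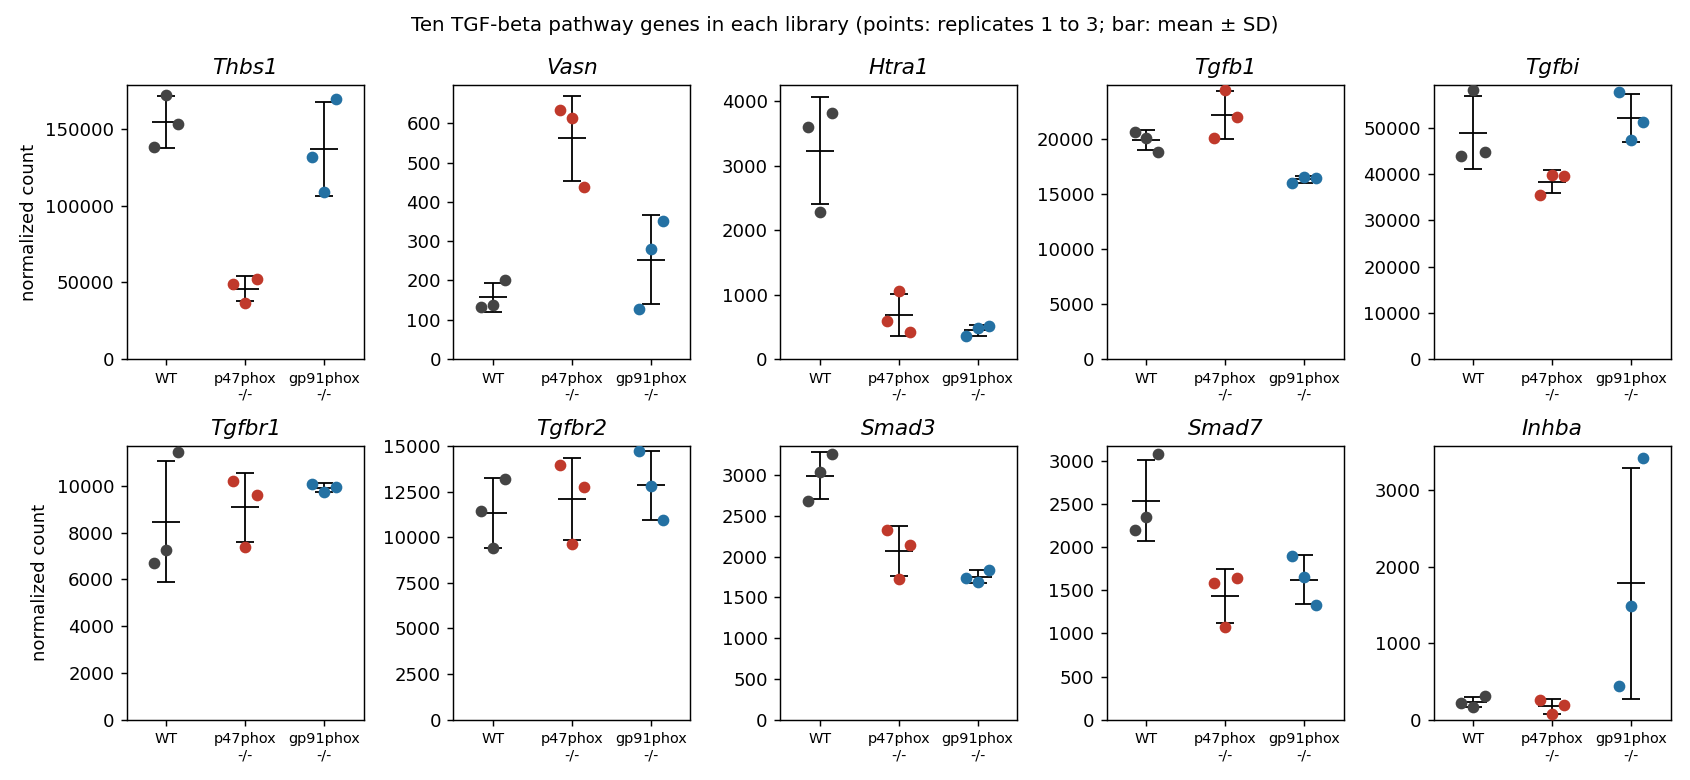
Normalized count of each member in each library, 1 panel per gene with its own axis from 0, with points for replicates 1 to 3 and bars for the mean and SD. The p47phox-/- points for Thbs1 (36643 to 52183) lie below all others, those for Vasn (437 to 634) above all others, both knockouts lie below WT for Htra1, and the gp91phox-/- points for Inhba run from 440 to 3414.

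Neither receptor was called in any comparison. Tgfbr1 (chromosome 4, 47353222 to 47414931, plus strand), the type I receptor kinase, had 6714, 7243 and 11435 normalized counts in WT, 10212, 7383 and 9622 in p47phox-/-, and 10092, 9731 and 9954 in gp91phox-/-. Tgfbr2 (chromosome 9, 116084293 to 116175360, minus strand), the type II receptor that binds the ligand, had 11411, 9380.4 and 13186 in WT, 13937, 9603 and 12750.0 in p47phox-/-, and 14743, 12800.2 and 10959 in gp91phox-/-. All 3 genotypes overlapped for both genes. For Tgfbr1 the log2 fold change against WT was 0.13 in p47phox-/- (95% interval -0.29 to 0.54, limma adjusted p = 0.791) and 0.27 in gp91phox-/- (-0.15 to 0.69, adjusted p = 0.467). For Tgfbr2 it was 0.09 (-0.29 to 0.48, limma adjusted p = 0.847) and 0.18 (-0.20 to 0.57, adjusted p = 0.611). These intervals leave room for differences of up to 0.69 on the log2 scale, so a p above the threshold does not show equal levels.

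Smad3, the receptor-activated transcription factor, fell in gp91phox-/-. It lies on chromosome 9 (GRCm38, 63646767 to 63757994, minus strand, protein-coding). Normalized counts were 2687, 3032 and 3256 in WT, 2323, 1727 and 2145 in p47phox-/-, and 1738, 1691 and 1837 in gp91phox-/-. All knockout libraries lay below all WT libraries. In gp91phox-/- the log2 fold change was -0.77 (SE 0.14, 1.70-fold lower, limma adjusted p = 0.00582), called in all 21 alternatives. In p47phox-/- it was -0.54 (95% interval -0.85 to -0.24, limma adjusted p = 0.0915), and -0.36 without p47phox-/- replicates 2 and 3, and DESeq2 called it (adjusted p = 0.0127). The knockouts were not called apart (gp91phox-/- against p47phox-/-, -0.22, limma adjusted p = 0.343).

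Smad7, the inhibitory Smad that TGF-beta itself induces, was lower in value in both knockouts but passed the threshold in neither. This gene on chromosome 18 had 2193, 2345 and 3071 normalized counts in WT, 1587, 1069 and 1643 in p47phox-/-, and 1894, 1648 and 1325 in gp91phox-/-. Again the knockout libraries lay below WT without overlap. The log2 fold change was -0.83 in p47phox-/- (95% interval -1.27 to -0.40, limma adjusted p = 0.0733) and -0.64 in gp91phox-/- (-1.08 to -0.21, adjusted p = 0.0780). DESeq2 called both values (DESeq2 adjusted p = 0.00564 in p47phox-/- and 0.0353 in gp91phox-/-). The gp91phox-/- value passed the threshold in 4 of 21 alternatives, among them the fit without p47phox-/- replicate 2, with values from -0.76 to -0.50 over all 21. Between the knockouts it was 0.19 (limma adjusted p = 0.587).

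Tgfbi, a secreted matrix protein named for its induction by TGF-beta, is on chromosome 13 (GRCm38, 56609523 to 56639562, plus strand, protein-coding). Normalized counts were 43976, 58143 and 44758 in WT, 35463, 39814 and 39688 in p47phox-/-, and 57696, 47453 and 51331 in gp91phox-/-. The p47phox-/- libraries were the lowest 3, and the gp91phox-/- libraries overlapped WT. The limma fit called no contrast: -0.34 in p47phox-/- against WT (95% interval -0.68 to -0.0035, limma adjusted p = 0.327), 0.10 in gp91phox-/- (-0.24 to 0.44, adjusted p = 0.778) and 0.44 between the knockouts (adjusted p = 0.0953). DESeq2 called the last of these (adjusted p = 0.0107).

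**Figure D3:**
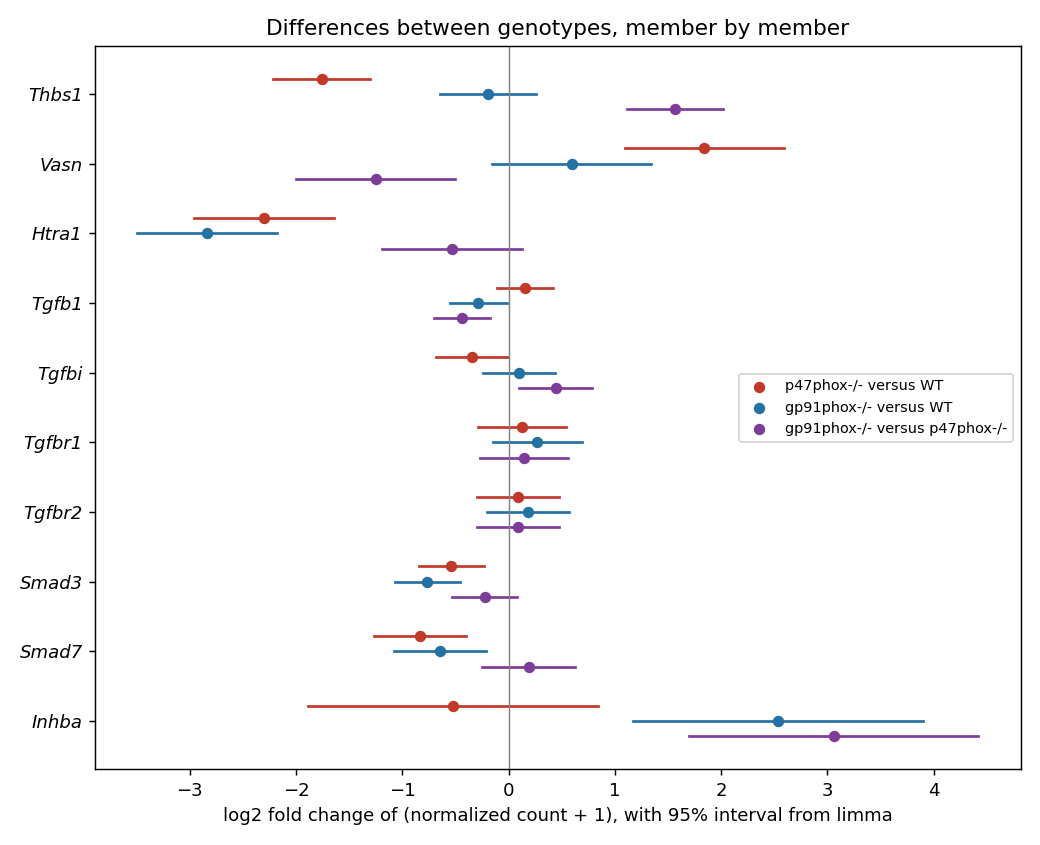
Log2 fold change of each member in the 3 comparisons, on the scale of log2(normalized count + 1), with 95% intervals from limma that are not adjusted for the number of genes. Thbs1 lies at -1.76 in p47phox-/- and -0.19 in gp91phox-/-, Vasn at 1.84 and 0.59, Htra1 at -2.30 and -2.83, Inhba at -0.52 and 2.54, and the receptor intervals include 0 in each comparison.

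Of the 7 members listed by role, limma called 0 in p47phox-/- against WT, where 0.625% of all genes tested were called higher and 0.5% lower (3 of the 7 at an unadjusted p under 0.05, 0 in edgeR and 2, Smad3 and Smad7, in DESeq2). No share of all genes at the unadjusted cut-off or in the count models is given here, and nothing is read from those counts. In gp91phox-/- against WT limma called 1 higher and 1 lower (Inhba and Smad3), beside 2.53% and 4.53% of all genes, and DESeq2 also called Smad7 lower. Between the knockouts limma also called 1 higher and 1 lower in gp91phox-/- (Inhba and Tgfb1), beside 3.97% and 5.96%. The counts over all 10 members include genes chosen for these contrasts, and nothing is read from them. In the order of comparisons above, these were 1 higher and 2 lower, 1 higher and 2 lower, and 2 higher and 2 lower. The median log2 fold change of the 7 members listed by role was -0.34, 0.10 and 0.14 in the 3 comparisons in this order, beside -0.02, 0.01 and 0.02 over all genes. The comparisons share groups, so these counts are not independent of each other.

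The wider pathway was read from 8 lists of ligands, extracellular regulators, receptors, Smads, intracellular regulators, targets, macrophage genes tied to TGF-beta, and relatives of the members. Together they hold 132 genes, of which 117 were tested, and 5 of the others are listed at 0 (Gpr34, Timp1, Usp9x, Usp11 and Xiap). These 5 lie on chromosome X, where all 1139 matched genes are listed at 0, so their expression cannot be read here. Without the 10 members, 107 genes were tested. Of these, 2 were called higher and 2 lower in p47phox-/- against WT, 5 and 3 in gp91phox-/- against WT, and 6 and 11 in gp91phox-/- against p47phox-/-. Their median log2 fold changes were 0.04, 0.02 and 0.02. Over all genes tested 0.625% and 0.5%, 2.53% and 4.53%, and 3.97% and 5.96% were called in these comparisons. Without p47phox-/- replicates 2 and 3, the counts with members included went from 3 higher and 4 lower to 0 and 2 in p47phox-/- against WT, and from 8 and 13 to 2 and 5 between the knockouts.

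Among the 12 ligands tested, Tgfb3, a second form of the ligand, fell in p47phox-/-. It had 1531, 1109 and 1538 normalized counts in WT, 531, 403 and 492 in p47phox-/-, and 934, 958 and 540.3 in gp91phox-/-. The log2 fold change in p47phox-/- was -1.54 (SE 0.23, limma adjusted p = 0.00848), with the call lost without WT replicate 3 and without p47phox-/- replicates 2 and 3 (-1.37), and values from -1.70 to -1.37 over all alternatives. All knockout libraries lay below WT, and the gp91phox-/- value was -0.81 (limma adjusted p = 0.0562). Gdf15, a distant family member induced by cell stress, was lower in gp91phox-/- than in p47phox-/- (-0.88, limma adjusted p = 0.0350). That call was lost in 10 of 22 alternatives, among them those without WT replicate 3, p47phox-/- replicate 2 or 3, or gp91phox-/- replicate 3 (-0.88 to -0.58), and without p47phox-/- replicates 2 and 3 together (-0.60).

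The 26 extracellular genes tested include the 3 members chosen by their values, and of the others Plau and Itgb3 were called against WT. Plau, the urokinase-type plasminogen activator whose product plasmin can release latent TGF-beta, had 11604, 6603 and 12124 normalized counts in WT, 20049, 20432 and 21719 in p47phox-/-, and 23379, 26202 and 24242 in gp91phox-/-. It rose by 1.09 in p47phox-/- (SE 0.20, limma adjusted p = 0.0232) and by 1.33 in gp91phox-/- (SE 0.20, adjusted p = 0.00155), contrasts that share the WT libraries. The p47phox-/- call was lost without p47phox-/- replicate 3 and without replicates 2 and 3 together (1.04), with values from 0.81 to 1.24 over all alternatives. Itgb3, the integrin beta subunit that pairs with alpha v or with the platelet alpha IIb, fell in gp91phox-/-. Its counts were 375, 792 and 707 in WT, 526, 406 and 299 in p47phox-/-, and 83.7, 76.0 and 67.1 in gp91phox-/- (log2 fold change -2.96 against WT, SE 0.30, limma adjusted p = 9.86e-05). Itga2b, the gene of alpha IIb, was low in all groups, at 27.3 to 35.7 normalized counts in WT, 22.7 to 40.0 in p47phox-/- and 5.46 to 24.2 in gp91phox-/- (not called), and the part of platelet RNA in the Itgb3 values was not tested. Ltbp4, a latent TGF-beta binding protein, and Nbl1, a secreted antagonist of the family, were lower in gp91phox-/- than in p47phox-/- (log2 fold changes -1.19 and -1.15, limma adjusted p = 0.0186 and 0.0393). The Nbl1 call was lost in 12 of 22 alternatives, including without any 1 library of either knockout (-1.26 to -0.98) and without p47phox-/- replicates 2 and 3 (-0.93). The Ltbp4 call was lost without gp91phox-/- replicate 2 or 3 (-1.10 and -1.17), and its value was -1.80 without p47phox-/- replicates 2 and 3. Col6a1, Dcn, Dpt and Myh11, 4 of the 16 markers of fibroblasts and smooth muscle, were called lower in this comparison too, and their part was not tested.

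Of the 13 receptors tested, limma, edgeR and DESeq2 each called 0 against WT in either knockout, while 3 had an unadjusted p under 0.05 in limma in each. Nothing is read from these 3, as the share of all genes at that cut-off is not given here. Of 7 Smads tested, Smad6, an inhibitory Smad of the bone morphogenetic protein branch, fell in p47phox-/-. It had 701, 484 and 664 normalized counts in WT, 270.3, 275 and 245 in p47phox-/-, and 654, 556 and 527 in gp91phox-/-. The log2 fold change was -1.21 against WT (SE 0.19, limma adjusted p = 0.0117), with the call lost without WT replicate 3 and without p47phox-/- replicates 2 and 3 (-1.17), and values from -1.37 to -1.10 over all alternatives. In gp91phox-/- it was -0.08 against WT (limma adjusted p = 0.872) and 1.13 against p47phox-/- (adjusted p = 0.00314), the latter 1.09 and no longer called without p47phox-/- replicates 2 and 3.

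Of 22 genes that TGF-beta induces in many cell types, limma called 0 in p47phox-/- and 3 in gp91phox-/-, all higher. In p47phox-/- 10 had an unadjusted p under 0.05 in limma, edgeR also called 0, and DESeq2 called 5 (Col1a1, Id2, Klf10, Runx3 and Smad7). In gp91phox-/- 7 had such a p and edgeR called the same 3 as limma. DESeq2 called 6 there (Cdkn1a, Id2, Klf10, Skil, Smad7 and Tgif1), with Smad7 lower (-0.63). The shares of all genes at this unadjusted cut-off and in DESeq2 are not given here, so nothing is read from these counts. Id2, an inhibitor of basic helix-loop-helix factors, rose in gp91phox-/- by 0.86 on the log2 scale (limma adjusted p = 0.00725), from 4140 ± 511 to 7528 ± 982 normalized counts (SD, n = 3). Klf10, a zinc finger factor first known as a TGF-beta-inducible early gene, rose by 0.63 (limma adjusted p = 0.0124), from 1980.1 ± 96.4 to 3080 ± 255. Skil, a repressor of Smad activity that TGF-beta induces, rose by 0.79 (limma adjusted p = 0.0106), from 9999 ± 1880 to 17154 ± 613. The immediate-early genes also moved in this group: the sum of 11 was 227531 to 284239 in WT, 253203 to 316536 in p47phox-/- and 317065 to 392540 in gp91phox-/-, with 3 of 11 called higher in gp91phox-/- (Fosb, Ier3 and Zfp36), and its part in these values was not tested. Ccn2, a widely used target gene in fibroblasts, was lower in gp91phox-/- than in p47phox-/- (-1.34, limma adjusted p = 0.0245) and was not called against WT. The call was lost in 6 of 22 alternatives, including without p47phox-/- replicate 3 or gp91phox-/- replicate 1 or 2 (-1.35 to -1.19) and without p47phox-/- replicates 2 and 3 (-1.15). Ccn2 is also expressed by fibroblasts, whose marker values are given above. The remaining call against WT among intracellular regulators was Ube2o, a ubiquitin ligase acting on Smad6, which fell by 0.65 on the log2 scale in gp91phox-/- (limma adjusted p = 0.0221).

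Several of these calls in gp91phox-/- against WT depended on single libraries. The Skil call was lost without WT replicate 1 or 2 and the Klf10 call without WT replicate 3 or gp91phox-/- replicate 2 or 3. That of Ube2o was lost without any 1 of the 6 libraries, whereas that of Id2 was kept with each of them left out. Over all alternatives the values stayed at 0.67 to 0.94 for Skil, 0.58 to 0.70 for Klf10, -0.68 to -0.60 for Ube2o and 0.77 to 0.96 for Id2.

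Of 14 genes tied to TGF-beta in gut macrophages and microglia, Il10 was called against WT in both knockouts. Il10, the anti-inflammatory cytokine made by resident gut macrophages, had 4972, 4028 and 4232 normalized counts in WT, 9991, 9658 and 8883 in p47phox-/-, and 9056, 13595 and 11497 in gp91phox-/-. It rose by 1.11 in p47phox-/- (SE 0.15, limma adjusted p = 0.00653) and by 1.35 in gp91phox-/- (SE 0.15, adjusted p = 0.000216), with the same WT libraries in both. Without p47phox-/- replicates 2 and 3 the first value was 1.19 and no longer called. Cx3cr1, the fractalkine receptor of resident macrophages, split the p47phox-/- group, with 598 and 899 normalized counts in replicates 1 and 3 and 5056 in replicate 2, inside the WT range of 4060 to 5542. In gp91phox-/- it was 14746 to 24878, with a log2 fold change of 3.74 against p47phox-/- (SE 0.57, limma adjusted p = 0.00164) and of 1.95 against WT (adjusted p = 0.0622). The value against p47phox-/- was 4.67 without p47phox-/- replicate 2, 3.13 without replicate 1 and 4.97 without replicates 2 and 3 together.

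Among the 11 relatives of the members, the thrombospondin Thbs3 fell in gp91phox-/-. Its normalized counts were 288, 270.2 and 252 in WT, 219, 282 and 306 in p47phox-/-, and 128, 135 and 143 in gp91phox-/-, a log2 fold change of -0.99 against WT (SE 0.22, limma adjusted p = 0.0177). The call was lost without WT replicate 1 or 2 or without any 1 gp91phox-/- library (-1.04 to -0.89 over all alternatives). Cd36, a receptor for thrombospondin 1 and for oxidised lipids, averaged 17661 ± 4891 normalized counts (SD, n = 3) in p47phox-/-, 9212 ± 2192 in WT and 7418 ± 277 in gp91phox-/-, and was called between the knockouts (-1.21, limma adjusted p = 0.00343), also without p47phox-/- replicates 2 and 3 (-1.36).

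**Figure D4:**
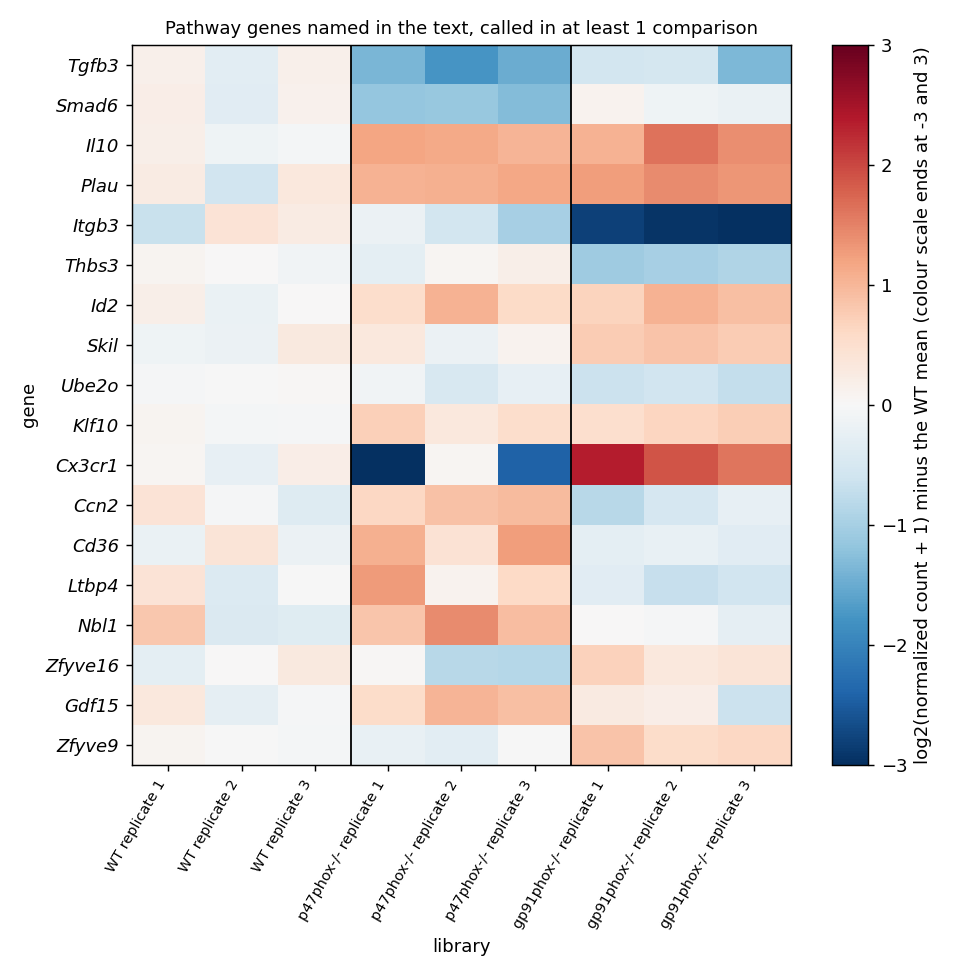
Pathway genes named in the text that were called in at least 1 comparison, with a column per library and the colour giving log2(normalized count + 1) minus the WT mean, ending at -3 and 3. Il10 and Plau are red in all knockout libraries, Tgfb3 and Smad6 are darkest blue in p47phox-/-, Itgb3 is dark blue in gp91phox-/-, and Cx3cr1 differs between the p47phox-/- libraries.

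The genes whose levels most resembled those of the 3 extracellular members were taken by Pearson correlation of log2(normalized count + 1) over the 9 libraries, among 10670 genes with a mean of at least 50 normalized counts. The points share genotype groups and libraries, so the coefficients are a description. For Thbs1 the closest were Nrg1 (r = 0.963), Gpalpp1 (0.957), Zdhhc6 (0.955), Gpr35 (0.950) and Itprip (0.946). Nrg1, which encodes the growth factor neuregulin 1, averaged 1271 normalized counts in WT, 261 in p47phox-/- and 1080.0 in gp91phox-/-. For Vasn they were Cfl2 (0.956), Tpm1 (0.953), Itga5 (0.943), Spaca6 (0.935) and Acy1 (0.932). Cfl2 and Tpm1 encode actin-binding proteins, and Itga5, the fibronectin receptor subunit, averaged 9695 in WT, 15984 in p47phox-/- and 11414 in gp91phox-/-. For Htra1 they included Ccdc174 (0.967), Fbxo42 (0.951), Ece1 (0.948) and Rprd2 (0.944). Ece1, the endothelin-converting enzyme, averaged 6012 in WT, 3814 in p47phox-/- and 3328 in gp91phox-/-.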

How the data were processed

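RNA of 9 libraries was analysed, 3 per genotype. Per the labels, reads were demultiplexed with bcl2fastq 2.19, trimmed with Cutadapt, aligned to mm10 with STAR 2.5.2b and counted with featureCounts, and the submitters' processing notes name DESeq2. The strand setting and the annotation are not given in the sources used here. The authors deposited normalized counts, a signal equal to reads divided by a size factor. Whole reads were recovered from them for 100% of values (tolerance 0.01), with size factors of 1.05 to 1.66 and 31141107 to 52797368 reads per library.

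The scale was log2(normalized count + 1). The 14404 genes that reached 10 normalized counts in 3 or more libraries were fitted in limma 3.58.1 (R 4.3.3), in 1 model of 3 groups with a mean-variance trend, and called at a Benjamini-Hochberg adjusted p under 0.05 over all genes tested. Fold changes on this scale understate changes of low genes. Members, gene lists and the rule for named genes were chosen with earlier results of these data known. Named besides the members are list genes called in a comparison with a mean of at least 50, at most 12 per comparison by fold change, and, for Thbs1, Vasn and Htra1, the 5 most alike genes. Gene models are GENCODE M21, used for 27881 symbols that match 1 gene. Alternatives were other pseudocounts, filters and scalings, no trend, array weights, only the groups compared, a replicate block, each library left out, p47phox-/- replicates 2 and 3 left out, and count models on the recovered reads (edgeR 4.0.16, DESeq2 1.42.0). Values of a few genes that the rule names are left out of the text, while counts and sums keep them. The procedure was also run on simulated counts, with the same dispersion set for every gene and library. That run does not show how it performs on these unequal libraries, and its outcome is not given here.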

Additional observations from a re-analysis of the deposited data

Results flagged for a closer look

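The direct comparison of the knockouts tests whether their effects differ, since both are set against the same WT libraries. Of the members, Inhba was 3.06 higher on the log2 scale in gp91phox-/- than in p47phox-/- (limma adjusted p = 0.00941) and Tgfb1 was at -0.44 (adjusted p = 0.0408). For Thbs1 (1.57) and Vasn (-1.25), which were chosen for their differences, the values are a description.

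Among the other pathway genes, those with the greatest log2 fold change among the genes called between the knockouts with a mean of at least 50 normalized counts included 4 that limma called higher in gp91phox-/- than in p47phox-/-, Cx3cr1 (3.74), Smad6 (1.13), Zfyve16 (1.01) and Zfyve9 (0.86), and 7 called lower, Itgb3 (-2.39), Ccn2 (-1.34), Cd36 (-1.21), Ltbp4 (-1.19), Nbl1 (-1.15), Thbs3 (-0.97) and Gdf15 (-0.88). Without p47phox-/- replicates 2 and 3, the values were 4.97 for Cx3cr1, -2.79 for Itgb3, -1.36 for Cd36 and -1.80 for Ltbp4, all still called. Those of Smad6 (1.09), Zfyve16 (0.43), Zfyve9 (0.89), Ccn2 (-1.15), Nbl1 (-0.93), Thbs3 (-0.69) and Gdf15 (-0.60) were no longer called. The Zfyve16 call was lost in 7 of 22 alternatives, including without p47phox-/- replicate 2 or 3 or any 1 gp91phox-/- library (0.86 to 1.09), the Zfyve9 call without gp91phox-/- replicate 1 or 3 (0.77 and 0.89), and the Thbs3 call without gp91phox-/- replicate 1 or 2 (-0.93 and -0.97). Groups of 3 are too small for a check of single outlying libraries.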

How the results depend on the processing

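Each result was recomputed under 21 or 22 alternatives. Of 1170 values for single genes, 1018 kept their direction and side of the threshold, 132 lost the call, 8 gained it and 12 changed direction, all 12 from uncalled values. Tgfbi in gp91phox-/- against WT was -0.074 under quantile normalization. In p47phox-/- against WT, leaving out 1 library gave -0.018 to 0.37 for Tgfbr1, -0.038 to 0.25 for Tgfbr2 and -0.89 to 0.023 for Inhba. Between the knockouts it gave -0.065 to 0.20 for Tgfbr2 and -0.0089 to 0.33 for Smad7, and array weights gave -0.018 for Tgfbr2. Without p47phox-/- replicates 2 and 3 together the values were -0.041 for Tgfbr1 and -0.13 for Tgfbr2 between the knockouts, and 0.22 for Inhba in p47phox-/- against WT.

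Called genes of the pathway lists numbered 3 higher and 4 lower in p47phox-/- against WT, 6 and 5 in gp91phox-/- against WT, and 8 and 13 between the knockouts. Over all 14404 genes tested the calls were 90 and 72, 364 and 652, and 572 and 858. The all-gene calls of the alternatives are not given here, and the pathway counts include members chosen for these contrasts. Changes in the counts between settings are therefore not read as traits of the pathway. With no mean-variance trend the pathway counts were 0 and 2, 3 and 5, and 4 and 5. Without any filter the last count was 6, and with array weights the gp91phox-/- counts were 13 and 10. Fitting only the groups compared gave 2 and 4, 8 and 7, and 8 and 8. edgeR gave 3 and 4, 7 and 5, and 11 and 7, and DESeq2 8 and 8, 10 and 10, and 18 and 14. Without p47phox-/- replicates 2 and 3 together they were 0 and 2, and 2 and 5, with a lone p47phox-/- library assumed to vary like the other groups. Leaving out 1 library gave 1 to 5 and 2 to 5, 4 to 10 and 3 to 8, and 5 to 10 and 3 to 12. With the replicate block the counts were 3 and 4, 6 and 5, and 8 and 11. Deviations of same-numbered libraries from their group means correlated at -0.04 to 0.08 over 9 pairs. The highest value was between replicates 1 of WT and gp91phox-/- (0.076), followed by replicates 2 of these groups (0.063). Replicates 1 of the knockouts gave -0.040. Differently numbered libraries ran from -0.071 to 0.054. In all, 2 libraries correlated best with their own number in both other groups. Correlations this small do not show whether the numbers pair the samples.

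With 3 libraries a group and low levels of Vasn and Inhba, differences of small size were not detectable for these genes. The causes of lost calls were not tested.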
